A study of Drosophila melanogaster with 3 samples.

Results

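Larval neuroblast lineage cells of a mud mutant were set against those of larvae that express a nanobody fusion with a kinase domain, in single-cell RNA-seq data with 1 library per genotype. A barcode counted as a cell when it held at least 1000 UMIs (unique molecular identifiers, each marking 1 captured RNA molecule), at least 500 detected genes and no more than 20% mitochondrial UMIs. Cells were then taken by 3 gates on transcripts. The progenitor gate required at least 1 UMI of dpn and 0 of nSyb, the ganglion mother cell (GMC) gate at least 2 UMIs of ase and 0 of dpn, and the neuron gate at least 1 UMI of nSyb and 0 of dpn. The gates held 18718 of the 29609 cells of the mud and nanobody libraries, and the series held 44461 cells over 3 libraries.

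The cells came from larval Drosophila melanogaster brains at 72 to 96 h after egg laying, sorted by flow cytometry for type 1 neuroblast lineages and captured with 10x GEM-X 3' v4 chemistry in 1 batch. All 3 genotypes carried Sqh::GFP, a GFP fusion of the myosin regulatory light chain, together with worGal4 and UAS-mCherry::Jupiter, which marks microtubules in neuroblast lineages. The mud larvae also carried the mud4 allele on the X chromosome. The nanobody larvae also carried UAS-ALDInscuteable RockKinase domain-VhhGFP4-HA on chromosome 3, a fusion that joins an Inscuteable domain, a kinase domain and a GFP-binding nanobody, and they had no mud allele in their label. The control larvae carried the reporters and the driver alone. The nanobody fusion was driven by worGal4 in neuroblast lineages, whereas the mud4 allele was present in the whole animal. The series asks how the size of the daughter cells bears on cell cycle progression and fate in asymmetric neuroblast division.

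A neuroblast is a neural stem cell that divides into a large neuroblast and a small ganglion mother cell, which divides once more into neurons or glia. Mud, the relative of NuMA, anchors spindle microtubules at the apical cortex through Pins and so aligns the spindle with cell polarity, while Inscuteable links Pins to the Par complex. Phosphorylation of the myosin light chain Sqh activates the myosin that shapes the cleavage furrow and the unequal size of the daughters. Neuroblasts also pass through a temporal series in which early factors such as Imp, Chinmo and Castor give way to Syp, Broad and Eip93F, with Svp and the ecdysone receptor EcR acting at the switch.

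The 3 libraries held similar depths. The mud library had 125857942 UMIs, the nanobody library 127824556 and the control library 120307337, with a median per cell of 6176 UMIs in mud, 6863 in nanobody and 6528.5 in control. Of the cell barcodes, 78 occurred in both the mud and the nanobody library. With 1 library per genotype there is no replicate check, so values are given without a test, and every interval below is an exact 95% interval that covers counting error only.

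The progenitor gate held 721 cells, or 4.75% (4.41 to 5.10) of called cells, in mud, 768 cells, or 5.33% (4.97 to 5.71), in nanobody and 408 cells, or 2.75% (2.49 to 3.02), in control. After each cell was thinned to 1000 UMIs, the shares were 1.58% in mud, 1.90% in nanobody and 0.821% in control. The share was thus lower in mud than in nanobody, while the level of dpn over all called cells went the other way, at 26.8 CPM (counts scaled to a common total of UMIs) in mud, 25.0 in nanobody and 18.8 in control, so no order between mud and nanobody is read from it. Free RNA adds to such shares. Among glial cells, taken as those with at least 2 UMIs of repo, 6 of 107 in mud (5.61%), 3 of 59 in nanobody (5.08%) and 6 of 89 in control (6.74%) held dpn, against 5.67%, 5.92% and 3.08% of all called cells in mud, nanobody and control. These unthinned shares are background at a median of 9813, 10413 and 9935 UMIs in the glial cells of mud, nanobody and control. In thinned counts dpn was in 0 of the 107 mud and 0 of the 59 nanobody glial cells. Taken as 3 counts of the total, this allows a share of up to 2.80% in mud and 5.08% in nanobody. Of the control glial cells 1 of 89 held dpn in thinned counts (1.12%, 0.0284 to 6.10). Among neurons with at least 5 UMIs of nSyb, thinned counts held dpn in 0.197% of mud, 0.168% of nanobody and 0.0436% of control cells, at median depths of 9795, 10703 and 9734 UMIs in mud, nanobody and control, against 1.63%, 1.94% and 0.842% of all called cells.

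The GMC gate held 3748 cells (24.7%, 23.98 to 25.4) in mud, 3362 (23.3%, 22.6 to 24.02) in nanobody and 3938 (26.5%) in control. The neuron gate held 5583 cells (36.7%, 36.0 to 37.5) in mud, 5132 (35.6%, 34.8 to 36.4) in nanobody and 4955 (33.4%) in control. The cells of mud were shallower in both gates, with a median of 7343 UMIs in mud and 8585 in nanobody GMC cells and of 7626 UMIs in mud and 8696 in nanobody neurons. Both shares were higher in mud than in nanobody, also in thinned counts, at 3.48% in mud and 2.87% in nanobody for the GMC gate and at 18.2% in mud and 16.5% in nanobody for the neuron gate. In thinned counts control held 3.26% in the GMC gate and 16.5% in the neuron gate. Over all called cells ase stood at 183 CPM in mud, 166 in nanobody and 190 in control. nSyb stood at 339.9 CPM in mud, 275 in nanobody and 315 in control. The gates are set on these same genes, so their levels are not separate support for the order of the shares. Glial cells with at least 2 UMIs of ase made up 8.41% in mud and 3.39% in nanobody, and those with nSyb 10.3% in mud and 10.2% in nanobody, all under the shares of called cells of 27.8%, 26.4%, 37.7% and 36.2% in the same order. The gates overlap in 348 mud and 248 nanobody cells that met both the GMC and the neuron gate.

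**Figure D1:**
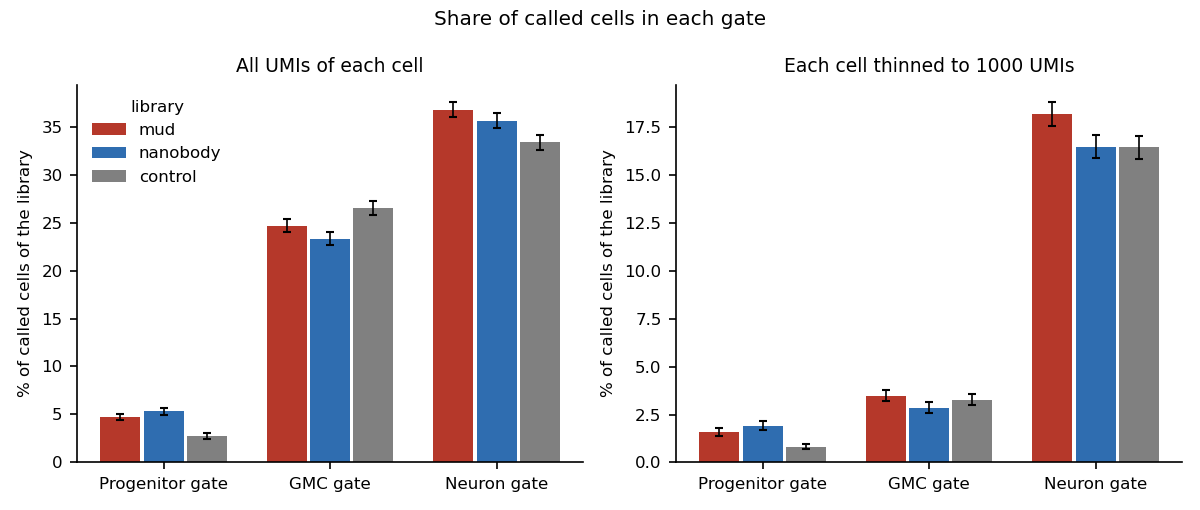
Share of called cells in each gate (percent, y axis) for the mud, nanobody and control libraries, as counted and after thinning to 1000 UMIs per cell, with exact 95% binomial intervals as bars. The progenitor share was 4.75% in mud, 5.33% in nanobody and 2.75% in control before thinning, and the neuron share was highest in mud in both panels (36.7% and 18.2%).

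Neuroblast and neuron markers followed the gates, while the GMC list did not single out the GMC gate, which is therefore named by its rule. The neuroblast list (dpn, wor, mira, ase, klu, grh, N and E(spl)mgamma-HLH, of which dpn and ase are gate genes) summed to 3605 CPM in mud, 3428 in nanobody and 3569 in control progenitors, against 189.6 CPM in mud, 131 in nanobody and 129.9 in control neurons. The neuron list (elav, nSyb, brp, Syt1, para, fne and Syn, of which nSyb is a gate gene) ran the other way. It summed to 792 CPM in mud, 1070 in nanobody and 947 in control progenitors. In neurons it was 6760 CPM in mud, 7521 in nanobody and 7746 in control. The gates set dpn to 0 in neurons and nSyb to 0 in progenitors, so part of both contrasts was fixed by the rule. nSyb made up 780 CPM of the mud and 642 CPM of the nanobody neuron sum. The GMC list was highest in the neuron gate rather than in the GMC gate, at 8929 CPM in mud and 14648 in nanobody neurons against 3344 CPM in mud and 3752 in nanobody GMC cells, and most of the neuronal sum was pros, at 8645 CPM in mud and 14380.1 in nanobody neurons. mira, the adaptor that carries fate determinants to the basal cortex, had at least 1 UMI in 84.7% of mud, 84.1% of nanobody and 81.9% of control progenitor cells. The sort was for type 1 lineages, and genes listed for type II lineages and their intermediate progenitors were detected as well. At least 1 UMI of pnt, opa or btd was in 50.2% (46.5 to 53.9) of mud, 40.2% (36.7 to 43.8) of nanobody and 49.0% of control progenitor cells. After thinning it was in 22.7%, 16.4% and 23.0% of mud, nanobody and control cells. opa is also in the optic lobe list, so these shares do not count type II cells. pnt alone was in 71 of 721 mud, 45 of 768 nanobody and 49 of 408 control progenitor cells. Hemocyte markers in progenitors summed to 70.3 CPM in mud, 125 in nanobody and 129 in control, almost all of it SPARC, since the other 8 of the 9 markers were each under 5 CPM. Glial markers in progenitors summed to 658 CPM in mud, 644 in nanobody and 595 in control. Markers of fat body, muscle, trachea and eye disc summed to at most 22.8 CPM in any library and gate.

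The transcript of mud itself, the gene of the mutant allele, was present in every library. In progenitors it stood at 292 CPM (281 to 303) in mud, 261 CPM (250.1 to 271) in nanobody and 206 CPM (195 to 218) in control. In GMC cells it was 252 CPM in mud, 231 in nanobody and 224 in control, and in neurons 36.4 CPM (34.7 to 38.2) in mud, 17.0 CPM (15.9 to 18.2) in nanobody and 17.3 CPM (16.0 to 18.6) in control. The level was thus no lower in the mutant in any gate, and in neurons it was 2.14-fold (1.97 to 2.33) higher in mud than in nanobody as a ratio of CPM. The neuron levels lay under the limit of 50 CPM used below for measured genes. Free RNA of the mud gene was above them, at 197 CPM in mud, 140 in nanobody and 122 in control. How much of the neuron level was free RNA was not measured. The labels do not say that mud4 alters the amount of transcript, so this level does not check the genotype.

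insc, which encodes Inscuteable, was lower in mud than in nanobody in all 3 gates: 66.6 CPM (61.5 to 72.1) in mud, 96.0 CPM (89.7 to 103) in nanobody and 67.5 CPM (61.0 to 74.4) in control progenitors, and 57.6 CPM (55.0 to 60.3) in mud, 106 CPM (102 to 109.5) in nanobody and 74.1 CPM (71.3 to 77.0) in control GMC cells. The nanobody library was the high one in both gates, and reads of the endogenous gene and of the Inscuteable part of the fusion cannot be told apart in these counts. In neurons insc was near 0, with 7.05 CPM in mud, 8.70 in nanobody and 5.37 in control. sqh, the light chain gene, was close between mud and nanobody, with 89.4 CPM in mud, 84.6 in nanobody and 81.2 in control progenitors.

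The mCherry reporter, made from the worGal4 driver, was lower in mud than in nanobody in every gate and highest in control. It stood at 46.4 CPM (42.1 to 50.9) in mud, 67.7 CPM (62.4 to 73.3) in nanobody and 112 CPM (104 to 121) in control progenitors, and at 116 CPM in mud, 191 in nanobody and 338 in control GMC cells. GFP, from the Sqh::GFP reporter, was low in every library, with 5.80 CPM in mud, 5.82 in nanobody and 6.55 in control progenitors.

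For the comparison of all genes, the UMIs of a gate's cells were added up and scaled to CPM, a gene counted as measured at 50 CPM or more in the mud or the nanobody library, and the log2 ratio was taken of mud over nanobody after adding 5 CPM to each. Few genes lay far apart. In progenitors 66 of 2908 measured genes (2.27%) were at least 1.5-fold higher in mud and 26 (0.894%) at least 1.5-fold lower. In GMC cells 69 of 2726 (2.53%) were higher and 9 (0.33%) lower, and in neurons 96 of 2844 (3.38%) were higher and 18 (0.633%) lower. The median log2 ratio over all measured genes was -0.07 in progenitors, -0.08 in GMC cells and -0.03 in neurons, while in each gate more genes were at least 1.5-fold higher in mud than lower.

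**Figure D2:**
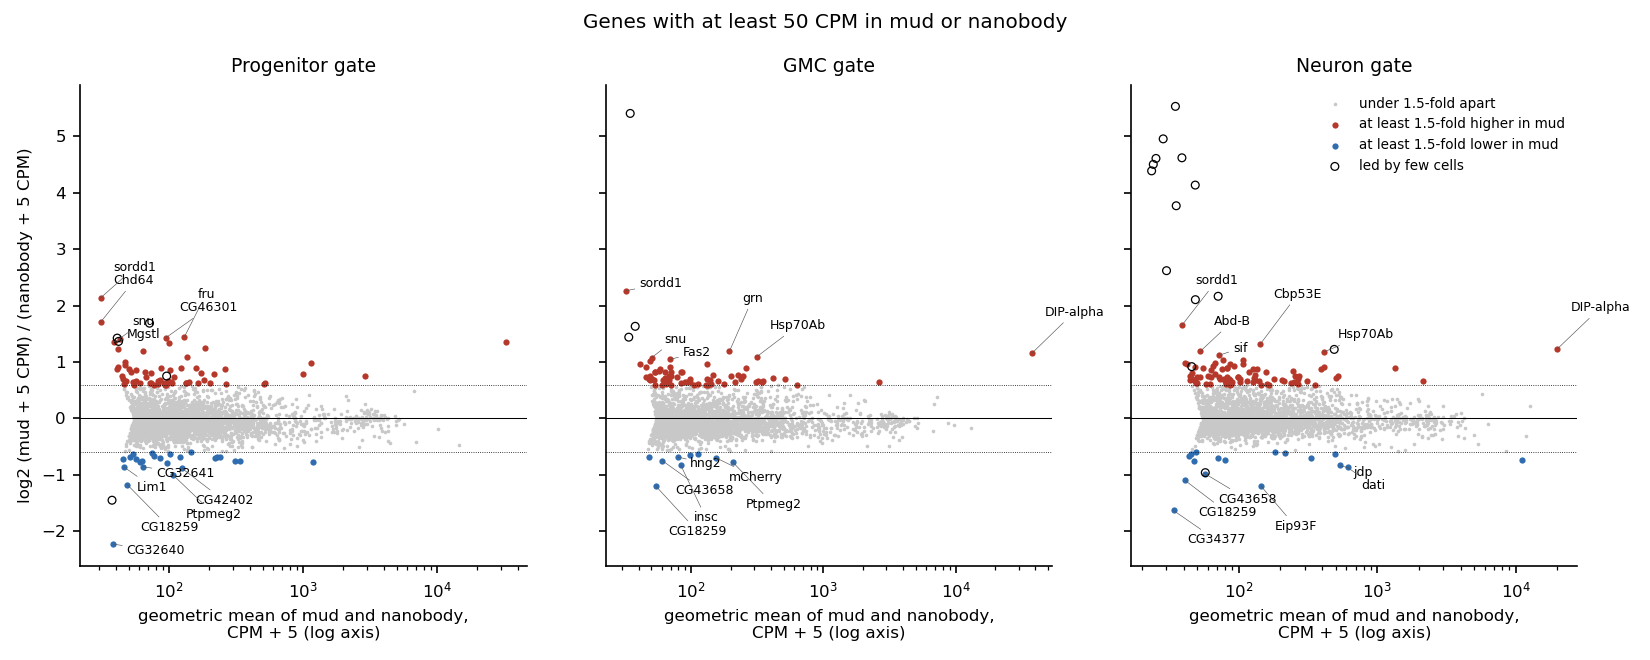
Log2 ratio of mud over nanobody (y axis) against the geometric mean of the mud and nanobody levels in CPM plus 5 (log x axis) for each measured gene, with 1 panel per gate, dotted lines at 1.5-fold and open circles for genes led by few cells. Most genes lie between the lines; sordd1 (2.14 in progenitors) and DIP-alpha (1.35 in progenitors) stand above them and CG18259 (-1.17 in progenitors) below.

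Among the temporal genes of progenitors, 4 of 12 measured were at least 1.5-fold higher in mud and 0 lower, with a list median of 0.21 against -0.07 over all genes. Imp, the RNA-binding protein of early neuroblasts, stood at 1616 CPM (1590.1 to 1642) in mud, 818 CPM (799.8 to 837) in nanobody and 868 CPM (844 to 892) in control, a log2 ratio of 0.98. EcR, the ecdysone receptor, was 194 CPM (185 to 203) in mud, 88.0 CPM (82.0 to 94.4) in nanobody and 88.0 CPM (80.6 to 95.8) in control. svp, the COUP-TF nuclear receptor of the temporal switch, was 61.3 CPM (56.4 to 66.5) in mud, 28.0 CPM (24.6 to 31.7) in nanobody and 23.7 CPM (19.9 to 27.9) in control. In these 3 genes the control library lay beside the nanobody library and mud alone was high. Their free RNA, read from barcodes with few UMIs, had the same order. It stood at 1395 CPM in mud, 600 in nanobody and 538 in control for Imp. For EcR it was 752, 250 and 240 CPM in mud, nanobody and control, and for svp 237, 117 and 99.1 CPM. For EcR and svp the free RNA was above the gate level in each library. How much free RNA these progenitors held was not measured. grh, the Grainyhead factor that neuroblasts keep through larval life and which also counts in the identity list, was 225 CPM in mud, 127 in nanobody and 137 in control, a log2 ratio of 0.81.

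Other temporal genes were close between the libraries. Syp, the late RNA-binding protein that opposes Imp, was 3414 CPM in mud, 3045 in nanobody and 3036 in control progenitors. chinmo, an early BTB zinc-finger factor, was 787 CPM in mud, 675 in nanobody and 747 in control. br, which encodes Broad, was 602 CPM in mud, 709 in nanobody and 609 in control, and Eip93F was 47.0, 66.9 and 69.3 CPM in mud, nanobody and control. br and Eip93F were thus lower in mud than in nanobody and chinmo and Syp higher, all by less than 1.5-fold. Among single cells, Imp had no UMI in 29.0% of mud, 33.2% of nanobody and 41.9% of control progenitors, and its median was 802 CPM per cell in mud, 604 in nanobody and 316 in control. By this median control lay below nanobody, unlike in the sum over the gate. The 90th percentile over cells was 4239 CPM in mud, 2631 in nanobody and 2276 in control.

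**Figure D3:**
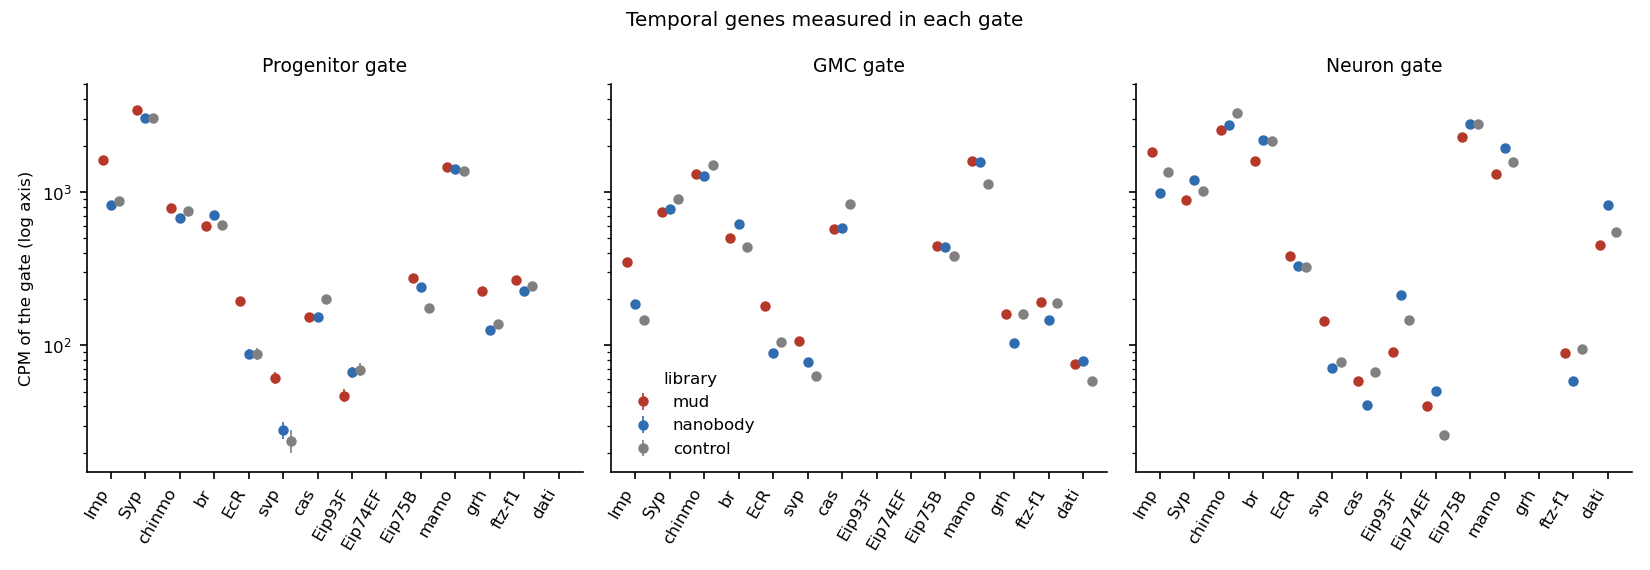
Level in CPM (log y axis) of measured temporal genes in the mud, nanobody and control libraries, with 1 panel per gate and exact 95% Poisson intervals. Imp is higher in mud than in nanobody in each panel (1616 CPM in mud against 818 CPM in nanobody progenitors), and Eip93F and dati are lower in mud neurons.

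Few listed genes of the stem cell programme were 1.5-fold apart in progenitors. Among all measured genes the shares were 2.27% higher and 0.894% lower, so counts near 0 in short lists do not set them apart. Of 13 measured neuroblast identity genes, grh alone was 1.5-fold apart, with a list median of 0.04. dpn, a gate gene, stood at 277 CPM in mud, 289 in nanobody and 314 in control progenitors, and ase, the proneural factor of type I lineages, at 238, 225 and 187 CPM in mud, nanobody and control. None of the 14 apical polarity and spindle genes, 6 basal determinants, 25 actomyosin genes, 11 Notch genes, 18 replication genes or 23 mitosis genes was 1.5-fold apart in progenitors, with list medians between -0.15 and 0.02. Of 4 measured genes of cell cycle exit, dap, the p21/p27-type inhibitor of Cyclin E-Cdk2, was lower in mud at 185 CPM (176 to 194), against 300.5 CPM (289 to 312) in nanobody and 305 CPM (291 to 319) in control. Of 2 measured cell death genes 0 were apart, here as among the 3 of GMC cells and the 4 of neurons, with medians of -0.20 in progenitors, -0.36 in GMC cells and -0.39 in neurons. Of 15 growth genes, Myc was the one at least 1.5-fold higher, with 321 CPM (309.6 to 333) in mud, 209 CPM (199.8 to 219) in nanobody and 221 CPM (209 to 233) in control.

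The genes highest in mud progenitors were of mixed function. sordd1 stood at 59.9 CPM (55.0 to 65.1) in mud, 9.73 CPM (7.80 to 12.01) in nanobody and 7.39 CPM (5.37 to 9.91) in control, which is 6.15-fold (4.90 to 7.80) higher in mud than in nanobody. fru, the BTB zinc-finger factor of sexual differentiation, was 209 CPM (200.1 to 219) in mud, 73.8 CPM (68.3 to 79.7) in nanobody and 93.5 CPM (85.9 to 102) in control. grn, a GATA factor, was 152 CPM (144 to 160.3) in mud, 57.5 CPM (52.6 to 62.7) in nanobody and 87.4 CPM (80.1 to 95.3) in control. In these and in snu, an ABC transporter gene, control lay nearer nanobody than mud. Chd64, a calponin-domain protein gene, was 50.9 CPM in mud, 12.1 in nanobody and 30.0 in control, so its control level lay between the others. The log2 ratio of snu was 1.41, that of the glutathione S-transferase-like Mgstl 1.36, that of the leucine-rich repeat gene wdp 1.22 and that of CG46301 1.43. pnt, the ETS factor of type II lineages, was 119 CPM in mud and 68.9 in nanobody but highest in control at 209, with 10.1% of the mud UMIs in 1 cell. For fru the free RNA of the library, read from barcodes of 20 to 200 UMIs, was also high, at 239 CPM in mud, 61.8 in nanobody and 69.8 in control. After free RNA was subtracted at 5% of the UMIs, the log2 ratio of fru was 1.42, against 1.44 before.

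Genes lower in mud progenitors included regional and lineage factors. scro, an NK2 homeobox gene of optic lobe and brain progenitors, stood at 911 CPM (892 to 931) in mud, 1554 CPM (1528 to 1580.3) in nanobody and 1213 CPM (1185 to 1241) in control. It had no UMI in 54.1% of mud, 34.6% of nanobody and 46.6% of control progenitor cells, so fewer mud cells held it, whereas its free RNA was higher in mud, with a log2 ratio of 0.39. D, the Sox factor Dichaete, was 233 CPM in mud, 395 in nanobody and 358 in control, and the LIM-homeodomain gene Lim1 was 29.2, 57.1 and 42.1 CPM in mud, nanobody and control. Of 11 measured optic lobe genes scro and D were at least 1.5-fold lower in mud and 0 higher, with a list median of -0.07, equal to that of all genes. SPARC, a matrix glycoprotein gene of hemocytes and glia, was 68.0 CPM in mud, 121 in nanobody and 125 in control, and the tyrosine phosphatase gene Ptpmeg2 was 70.6, 146 and 101 CPM in mud, nanobody and control. CG42402 (-0.88), the midkine and pleiotrophin relative miple1 (-0.76) and bip1 (-0.75) were lower by log2 ratio too. CG32640 had the lowest ratio, at 12.8 CPM (10.6 to 15.3) in mud, 78.1 CPM (72.4 to 84.1) in nanobody and 81.4 CPM (74.3 to 89.0) in control, beside 42.5, 80.9 and 88.8 CPM in mud, nanobody and control for CG32641. CG32640 and CG32641 are near-identical neighbours, so reads can be split between them and their separate values are uncertain.

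The progenitor gate is the smallest of the 3, and several values depend on which of its cells are kept. Among cells of 3000 to 12000 UMIs the log2 ratio of Imp was 0.38, and among the 235 mud and 217 nanobody cells with fewer than 3 UMIs of hemocyte and glia markers that of grn was 0.31, of dap -0.03, of Hsp23 -0.23 and of Lim1 0.37. In cells with at least 12% of UMIs on ribosomal protein genes it was 0.37 for Myc and 0.55 for grh, and in cells of 3000 to 12000 UMIs it was -0.37 for miple1. The marker limit is a fixed count of UMIs, which deeper cells reach more easily. It kept 235 of 721 mud and 217 of 768 nanobody progenitors, so it does not tell admixture of other cells from depth.

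In the GMC gate a pair of neuroblast genes stood apart. Neuroblasts whose dpn was not captured can meet this gate, and their number was not measured. Detection of dpn depends on depth: thinning took the mud progenitor gate from 721 to 240 cells. The values below are thus of the gate and do not place these transcripts in ganglion mother cells. mira was higher in mud, at 171 CPM (167 to 176), against 105 CPM (102 to 109) in nanobody and 101 CPM (97.3 to 104) in control. grh was 160.1 CPM (156 to 165) in mud and 104 CPM (101 to 108) in nanobody, with control at the mud level, 161 CPM (157 to 165). Of 11 measured identity genes these 2 were at least 1.5-fold higher in mud and 0 lower, with a list median of 0.10 against -0.08 over all genes. pbl, needed for the cytokinetic furrow, was the 1 of 25 actomyosin genes at least 1.5-fold apart, at 436 CPM (429 to 444) in mud, 272 CPM (267 to 278) in nanobody and 244 CPM (239 to 249) in control. insc, given above, was the 1 of 14 apical genes apart, lower in mud, and 0 of 9 replication and 0 of 22 mitosis genes were apart. Over all measured genes of this gate 2.53% were higher and 0.33% lower. Counts of 0 or 1 in such lists therefore do not set them apart.

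The temporal genes of GMC cells followed those of progenitors in part. Imp was 349.9 CPM (344 to 356) in mud, 187 CPM (182 to 192) in nanobody and 147 CPM (143 to 151) in control, and EcR was 179.8 CPM in mud, 89.5 in nanobody and 105 in control. With grh these made 3 of 12 temporal genes at least 1.5-fold higher and 0 lower, while the list median, 0.03, was near that of all genes. Genes of mature neurons went both ways in GMC cells. Of 10 measured, 3 were at least 1.5-fold higher in mud and 0 lower, with a median of 0.13 and a lowest ratio of -0.54, while the whole list summed to 3410.3 CPM in mud, 3944 in nanobody and 4014 in control, and the neuron markers to 2639 CPM in mud, 3488 in nanobody and 3511 in control. Snap25, a SNARE of synaptic vesicle release, stood at 95.6 CPM in mud, 55.6 in nanobody and 42.6 in control, and nAChRalpha5, an acetylcholine receptor subunit, at 57.7, 32.4 and 28.9 CPM in mud, nanobody and control. nSyb, the vesicle SNARE synaptobrevin, was 53.4 CPM in mud, 30.0 in nanobody and 32.1 in control. The GMC gate sets no limit on nSyb, and 348 mud against 248 nanobody GMC cells also met the neuron gate. Without cells that held nSyb, the log2 ratio was 0.81 for Snap25 and 0.97 for nAChRalpha5, and without cells with 3 UMIs of hemocyte or glia markers it was 0.54 for Snap25 and 0.18 for nAChRalpha5. The free RNA was higher in mud as well, at 679 CPM in mud and 298 in nanobody for Snap25 and at 368 CPM in mud and 165 in nanobody for nAChRalpha5. After free RNA was subtracted at 5% of the UMIs the log2 ratio was 0.55 for Snap25, under 1.5-fold, and 0.61 for nAChRalpha5.

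Several transcription factor genes were higher in mud GMC cells. grn was 289 CPM (283 to 295) in mud, 124 CPM (120.1 to 128) in nanobody and 185 CPM (180.4 to 189) in control. The homeobox genes Hmx and Dr were the 2 of 13 lineage factors at least 1.5-fold higher in mud, Hmx at 72.0 CPM in mud, 37.9 in nanobody and 50.6 in control and Dr at 51.8, 24.2 and 51.0 CPM in mud, nanobody and control. For Dr the control level thus equalled that of mud, and nanobody alone was low. Fas2, an NCAM-type adhesion protein gene, was 93.9 CPM (90.5 to 97.3) in mud, 42.9 CPM (40.6 to 45.2) in nanobody and 37.2 CPM (35.2 to 39.2) in control, but its log2 ratio was 0.20 in cells with fewer than 3 hemocyte or glia marker UMIs. snu (1.08), mrva (1.02), CG17684 (0.91), fru (0.90) and the intermediate progenitor zinc-finger gene erm (0.62) were higher by log2 ratio as well. On the low side Ptpmeg2 stood at 152 CPM in mud, 263 in nanobody and 222 in control, beside CG43658 (-0.75), hng2 (-0.68), Pa1 (-0.65), CG14715 (-0.62) and CG13920 (-0.58, just short of 1.5-fold). The log2 ratio of erm was 0.43 in cells of 3000 to 12000 UMIs, and that of CG17684 was 0.46 after free RNA was subtracted at 5%.

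In neurons the temporal list split. Imp, at 1829.9 CPM (1818 to 1842) in mud, 979 CPM (970.1 to 988) in nanobody and 1348 CPM (1337 to 1359) in control, and svp, at 144 CPM (140.5 to 147) in mud, 71.2 CPM (68.9 to 73.7) in nanobody and 78.3 CPM (75.6 to 81.0) in control, were higher in mud. Eip93F, an ecdysone-induced factor of late-born cells, was lower, at 90.5 CPM (87.8 to 93.2) in mud, 214 CPM (209.8 to 218) in nanobody and 147 CPM (143 to 151) in control. dati, a zinc-finger gene, was lower as well, at 448 CPM (442 to 454) in mud, 820.0 CPM (812 to 828) in nanobody and 544 CPM (537 to 551) in control. So 2 of 13 temporal genes were at least 1.5-fold higher and 2 lower, with a list median of -0.29 against -0.03 over all genes. Over all measured genes of the neuron gate 3.38% were higher and 0.633% lower, the shares beside which all neuron lists stand. Counts of 0 or 1 in a short list do not set it apart. Imp had no UMI in 42.4% of mud, 60.9% of nanobody and 58.6% of control neurons. Its medians were 240 CPM per cell in mud, 0 in nanobody and 0 in control. The free RNA of Imp was also highest in mud, at 1395 CPM in mud, 600 in nanobody and 538 in control. How many neurons held Imp from free RNA alone was not measured, so detection does not count neurons that express it. The other late genes were lower in mud by less than 1.5-fold, with Syp at 878 CPM in mud, 1199.5 in nanobody and 1010.3 in control and br at 1586, 2161 and 2145 CPM in mud, nanobody and control. For Eip93F the control lay between mud and nanobody, and its free RNA was level, with a log2 ratio of -0.01.

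pros, the homeodomain factor that ends self-renewal and is kept in young neurons, was lower in mud neurons, at 8645 CPM (8619 to 8672) in mud, 14380.1 CPM (14346 to 14414) in nanobody and 12257 CPM (12224 to 12290.3) in control. The median neuron held 1495 CPM of pros in mud, 2911 in nanobody and 2785 in control. The log2 ratio was -0.73 over the gate, -0.21 in neurons with 1 or 2 UMIs of nSyb and -0.99 in those with at least 5, so the gap lay in cells with more nSyb. jdp, a bZIP gene, was 399 CPM in mud, 715 in nanobody and 1088 in control, and was detected in few cells, with no UMI in 84.1% of mud, 85.8% of nanobody and 84.5% of control neurons. In neurons with at least 12% of UMIs on ribosomal protein genes the log2 ratio of jdp was 0.0935, against -0.83 over the gate. The BTB gene bab1 (-0.75), CG34377 (-1.63), CG43658 (-0.98), CG14459 (-0.73) and l(2)41Ab (-0.70) were lower in mud by log2 ratio too, with bab1 at -0.25 in cells of 3000 to 12000 UMIs. Of 9 measured newborn neuron genes, pros was the 1 at least 1.5-fold apart, and the list median was -0.21.

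Among the 10 genes highest in mud neurons, Cbp53E, a calcium-binding protein gene, stood at 220.4 CPM (216 to 225) in mud, 85.5 CPM (82.9 to 88.1) in nanobody and 149.8 CPM (146 to 154) in control. kcc, the potassium-chloride cotransporter gene, was 149 CPM in mud, 70.6 in nanobody and 98.9 in control, and GluRIA, an AMPA-type glutamate receptor gene, was 89.6, 42.6 and 47.6 CPM in mud, nanobody and control. The Rac exchange factor gene sif was 102 CPM in mud, 44.1 in nanobody and 59.9 in control, and Hr38, an activity-induced nuclear receptor gene, was 52.4, 24.04 and 39.1 CPM in mud, nanobody and control. For these 5 genes the control lay between mud and nanobody. Each was under 1.5-fold in neurons with 1 or 2 UMIs of nSyb, where the log2 ratio was 0.35 for Cbp53E, 0.35 for kcc, 0.32 for GluRIA, 0.37 for sif and 0.29 for Hr38. Among the 20 measured genes of mature neurons and synapses, para, the voltage-gated sodium channel, at 305 CPM in mud, 194 in nanobody and 293 in control, and Shab, a voltage-gated potassium channel, at 101, 59.0 and 76.8 CPM in mud, nanobody and control, were at least 1.5-fold higher and 0 lower, with a list median of 0.09. The free RNA differed more than the neurons for both, with log2 ratios of 1.69 for para and 2.02 for Shab, and after free RNA was subtracted at 5% they were 0.61 for para and 0.67 for Shab in neurons.

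All 12 glycolysis genes lay above 0 in neurons, between 0.24 and 0.87, with a median of 0.42, and 4 of them were at least 1.5-fold higher in mud. The whole list summed to 5453 CPM in mud, 4120 in nanobody and 6119 in control. By this sum control was above mud and nanobody was the low library. Pfk, the phosphofructokinase gene, stood at 96.8 CPM (94.1 to 99.7) in mud, 50.7 CPM (48.7 to 52.7) in nanobody and 68.5 CPM (66.0 to 71.0) in control. Hex-A, a hexokinase gene, was 323 CPM in mud, 190.2 in nanobody and 212 in control. Pglym78, phosphoglycerate mutase, was 224 CPM in mud, 137 in nanobody and 251 in control, and Ldh, lactate dehydrogenase, was 290.0, 185 and 407 CPM in mud, nanobody and control. For Pglym78 and Ldh control was above both, so nanobody was the low library. In neurons with 1 or 2 UMIs of nSyb the log2 ratio was 0.35 for Pfk, 0.23 for Hex-A, 0.28 for Pglym78 and -0.0015 for Ldh. In progenitors 8 of 9 measured glycolysis genes lay above 0 with a median of 0.25, and Ald1, the aldolase, at 210.3 CPM in mud, 111 in nanobody and 118 in control, was the 1 at least 1.5-fold higher.

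Patterning genes varied by single members. Abd-B, the most posterior Hox gene, was the 1 of 5 measured genes of the Hox and tsh list at least 1.5-fold apart in neurons, at 74.8 CPM (72.3 to 77.3) in mud, 29.9 CPM (28.4 to 31.5) in nanobody and 53.6 CPM (51.5 to 55.9) in control. Hmx, at 123 CPM in mud, 71.8 in nanobody and 77.0 in control, and kn, the EBF factor Collier, at 197, 129 and 147 CPM in mud, nanobody and control, were the 2 of 16 lineage factors at least 1.5-fold higher. Galphai, the G protein subunit that binds Pins beside Mud, was the 1 of 11 apical genes apart in neurons, at 79.3 CPM in mud, 41.4 in nanobody and 37.9 in control. The zinc-finger gene Sp1 (0.83), the Snail-family gene esg (0.69), the centriolar gene Cp110 (1.04) and feo, the PRC1 relative of the central spindle (0.61), were higher in mud neurons by log2 ratio. In neurons with 1 or 2 UMIs of nSyb the log2 ratio was 0.40 for kn and 0.50 for esg.

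**Figure D4:**
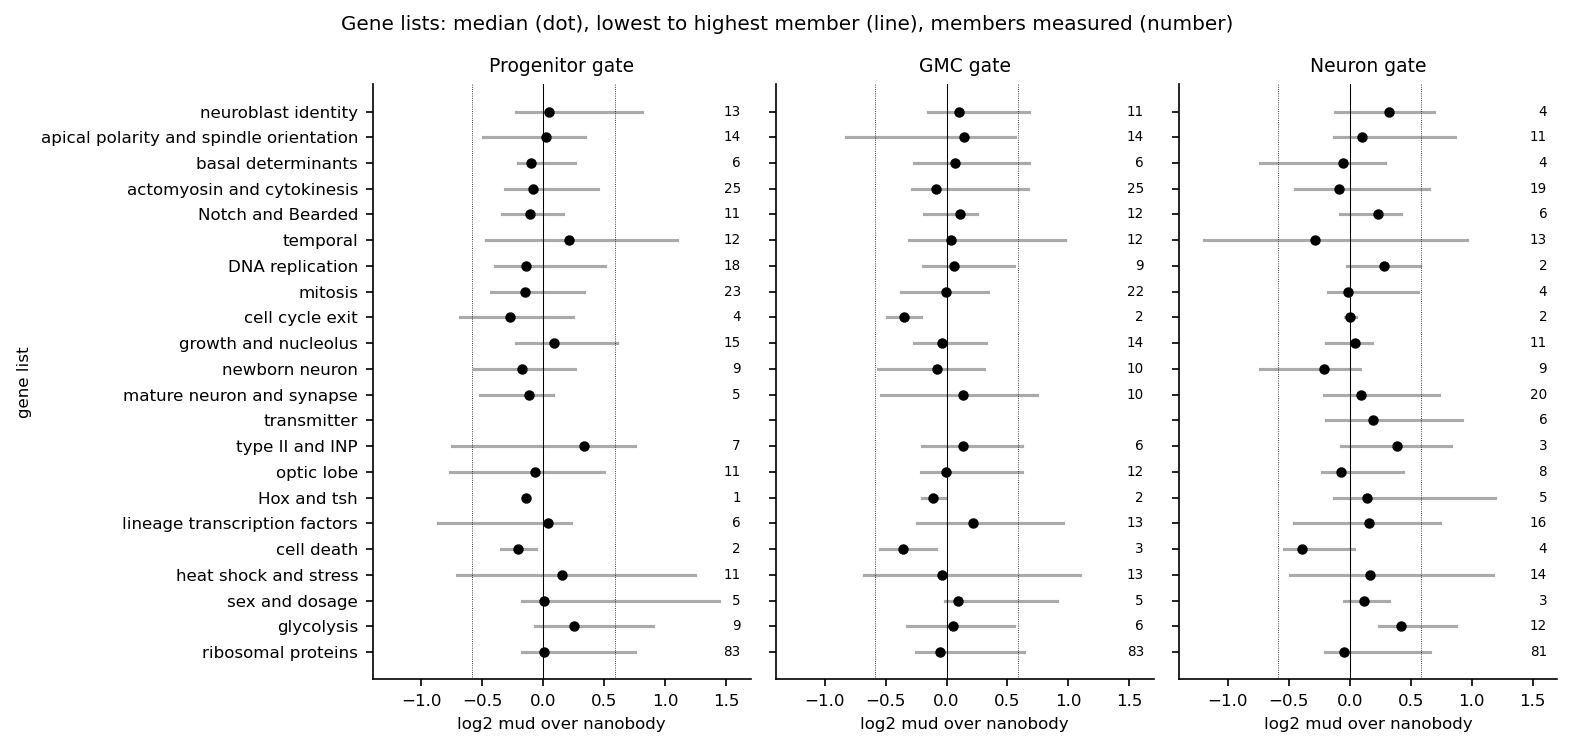
Log2 ratio of mud over nanobody (x axis) for the measured genes of each list, with 1 panel per gate, a dot at the list median, a line from the lowest to the highest member, the number of measured members at the right and dotted lines at 1.5-fold. Most lists centre near the all-gene median; the glycolysis list lies wholly above 0 in neurons (median 0.42) and the temporal list spreads from -1.20 to 0.97 there.

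A small set of genes stood apart in all 3 gates. Of 2054 genes measured in each gate, 14 were at least 1.5-fold higher in mud throughout and 1 lower, and 5 of the 14 and the 1 lower gene lie on the X chromosome, which carries mud4 and 380 (18.5%) of the 2054. sordd1 (log2 2.14 in progenitors, 2.26 in GMC cells and 1.65 in neurons) lies on X at 15793721 to 15796028 of the BDGP6.54 assembly, on the minus strand. Its level in GMC cells was 65.7 CPM (62.9 to 68.5) in mud, 9.72 CPM (8.66 to 10.9) in nanobody and 7.98 CPM (7.07 to 8.97) in control, and in neurons 63.5 CPM in mud, 16.9 in nanobody and 16.5 in control. CG18259, the lower gene, stood at 27.5 CPM (24.2 to 31.1) in mud, 68.2 CPM (62.9 to 73.9) in nanobody and 63.9 CPM (57.7 to 70.7) in control progenitors, with log2 ratios of -1.17 in progenitors, -1.19 in GMC cells and -1.10 in neurons. For both genes control lay beside nanobody in every gate, so mud was the library that differed, and their free RNA moved alike, with log2 ratios of 1.55 and -1.12.

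DIP-alpha, an immunoglobulin-family surface protein that binds Dpr partners, was the most abundant gene of the set. It stood at 52619 CPM in mud, 20624 in nanobody and 14049.6 in control progenitors, 56108 in mud, 25245 in nanobody and 17936 in control GMC cells, and 30576 in mud, 13039 in nanobody and 7794 in control neurons. The order was mud, nanobody, control in each gate, and the median GMC cell spent 5.48% of its UMIs on it in mud, 2.28% in nanobody and 1.73% in control. The gene contains lncRNA:CR34335 on the same strand, which has no entry of its own in the count matrices, so reads of the long non-coding RNA and of DIP-alpha cannot be told apart. Its free RNA had a log2 ratio of 0.45. Leaving DIP-alpha out of the CPM moved the all-gene median from -0.065 to -0.017 in progenitors. In GMC cells it moved from -0.084 to -0.039 and in neurons from -0.032 to -0.007. Much of each negative median, beside which the lists are set, thus came with the share of UMIs on this gene.

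The others of the 14 included chaperone, metabolic and transport genes. Hsp70Ab, an inducible chaperone, stood at 280.1 CPM in mud, 115 in nanobody and 53.7 in control progenitors and at 615 in mud, 269 in nanobody and 122 in control neurons. Hsp68 was 162 CPM in mud, 85.02 in nanobody and 77.7 in control progenitors. RpL39 was the 1 ribosomal protein gene apart in each gate, at 3790.5 CPM in mud, 2251 in nanobody and 1741 in control progenitors, while the median of the 83 measured was 0.00 in progenitors and -0.06 in GMC cells. Hsp70Ab, DIP-alpha and RpL39 thus shared the order mud, nanobody, control. Imp, given above, crc, the ATF4 factor of the stress response (0.87, 0.75 and 0.84 in progenitors, GMC cells and neurons), and PCB, pyruvate carboxylase (1.20, 0.83 and 0.69), also belonged to the 14. The rest, with log2 ratios in the same order of gates, were clu, of mitochondria (0.90, 0.69 and 0.74), emb, an exportin (0.63, 0.71 and 0.75), rb, of the AP-3 complex (0.62, 0.68 and 0.66), and sol, a calpain (0.61, 0.60 and 0.70), along with wge (0.66, 0.70 and 0.83) and lbk (0.66, 0.64 and 0.69).

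**Figure D5:**
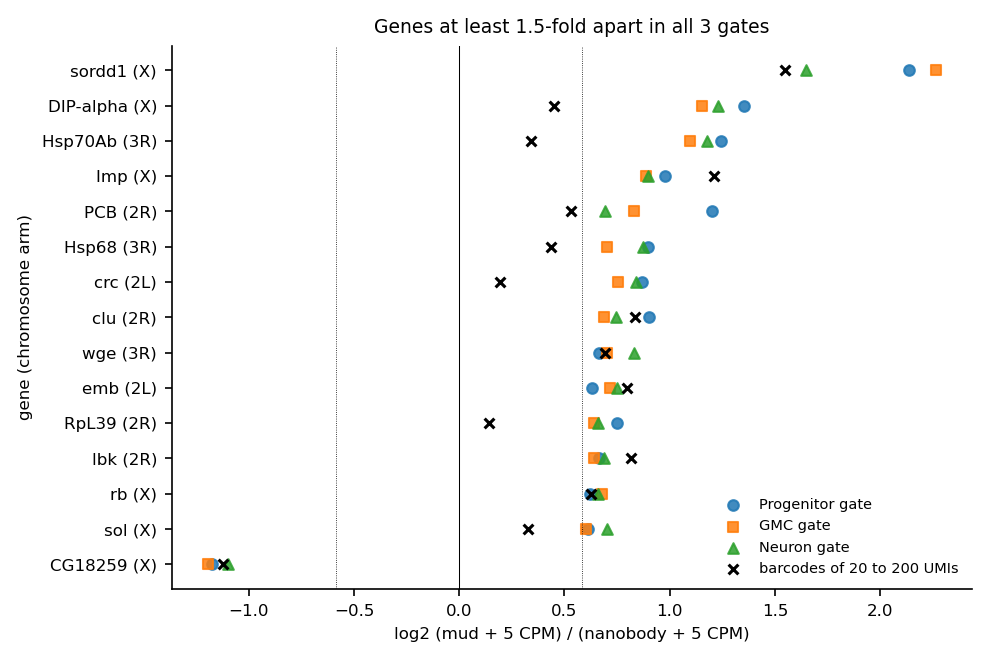
Log2 ratio of mud over nanobody (x axis) in progenitors, GMC cells and neurons for the genes at least 1.5-fold apart in all 3 gates, with crosses for barcodes of 20 to 200 UMIs (free RNA), the chromosome arm beside each name and dotted lines at 1.5-fold. sordd1 (1.65 to 2.26) and DIP-alpha (1.15 to 1.35) are the highest and CG18259 (-1.19 to -1.10) is the lowest.

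The heat shock list did not move as a block. In progenitors Hsp70Ab, Hsp68 and the Hsp40 co-chaperone gene DnaJ-1, at 103 CPM in mud, 62.3 in nanobody and 68.3 in control, were the 3 of 11 measured genes at least 1.5-fold higher, and the small chaperone gene Hsp23, at 166, 275 and 264 CPM in mud, nanobody and control, was lower. In GMC cells Hsp70Ab, Hsp68 and GstD1, a glutathione S-transferase at 60.1 CPM in mud, 38.1 in nanobody and 24.5 in control, were the 3 of 13 higher, GstD1 only just (log2 0.59, and 0.0355 with cells thinned to 1000 UMIs), and Hsp70Bc, at 33.1, 55.8 and 32.2 CPM in mud, nanobody and control, was lower. Hsp70Ab and Hsp70Bc are near-identical copies, so the split of reads between them is uncertain. In neurons 2 of 14 were higher and 0 lower. Over all measured genes the share higher was 2.27% in progenitors, 2.53% in GMC cells and 3.38% in neurons. The share lower was 0.894%, 0.33% and 0.633% in the same order. List medians were 0.15 in progenitors, -0.03 in GMC cells and 0.16 in neurons. The share of cells with under 12% of UMIs on ribosomal protein genes was 25.4% in mud and 22.7% in nanobody progenitors, 5.04% in mud and 7.58% in nanobody GMC cells and 22.2% in mud and 17.1% in nanobody neurons. Without these cells Hsp70Ab, Hsp68, DnaJ-1, GstD1, Hsp23 and Hsp70Bc were still at least 1.5-fold apart in the same direction in the gates given here.

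The control library places these differences. Among the 66 genes higher in mud progenitors, control was nearer nanobody for 61 (92.4%), against 69.0% of all measured genes, and among the 26 lower for 21 (80.8%). In GMC cells control was nearer nanobody for 65 of 69 higher genes (94.2%) and 6 of 9 lower genes (66.7%), against 69.7% of all. In neurons it was nearer for 77 of 96 higher genes (80.2%) and 9 of 18 lower genes, against 68.8% of all. The free RNA moved with most of these genes: it was higher in mud for 62 of the 66 higher progenitor genes (93.9%, against 39.0% of all), 65 of the 69 GMC genes (94.2%, against 40.8%) and 95 of the 96 neuron genes (99.0%, against 49.6%). After free RNA was subtracted at 5% of the UMIs of a gate, 65 genes were at least 1.5-fold higher in mud and 35 lower in progenitors, 65 higher and 13 lower in GMC cells, and 99 higher and 19 lower in neurons.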

How the data were processed

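The deposited files are raw UMI count matrices of 3 libraries, made by the authors with Cell Ranger 9.0.1 per the file headers. The submitters' processing notes name Cell Ranger and Seurat. The genome build is not given in the sources used here. All barcodes were deposited, so cells were called here by the stated limits, and free RNA was read from barcodes of 20 to 200 UMIs. Doublets were kept. UMIs were summed per gate and scaled to CPM of all UMIs in the gate, with a pseudocount of 5 CPM, a minimum of 50 CPM in the mud or nanobody library and a limit of 1.5-fold. Cells are not replicates and each genotype has 1 library, so no test was made. Counts have exact 95% Poisson intervals, shares exact 95% binomial (Clopper-Pearson) intervals, and ratios the matching conditional interval. A count of 0 allows a share of up to 3 counts of the total. Thinning drew 1000 UMIs per cell with seed 7. The sums and intervals were tested on simulated data.

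The genes named are, per gate, the 10 highest and 10 lowest log2 ratios among measured genes whose UMIs in the higher library came from at least 20 cells with no cell over 10%, the listed genes at least 1.5-fold apart, the gate genes, and the altered genes and reporters (mud, insc, sqh, GFP and mCherry). Some genes that this rule names are not reported here. Values of the genes apart in all 3 gates, of Syp, chinmo and br, and of genes led by few cells were added after their values were seen. The members and the 22 lists were chosen with earlier results of these data known. List symbols were updated to those of the matrices. roX1 and roX2 were not analysed here. Chromosomes come from Ensembl release 115 of BDGP6.54, joined on FlyBase IDs for 13976 of 13988 features. Of 85 named genes with coordinates, 51 overlap another annotated gene, and whether counting used strand is not given in the sources used here, so reads of such pairs cannot be told apart. Software was python 3.11.15, numpy 2.4.6, scipy 1.17.1, pandas 2.3.3, scanpy 1.11.5 and matplotlib 3.10.9.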

Additional observations from a re-analysis of the deposited data

How the results depend on the processing

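Over 21 other settings, 98 of 104 named values at least 1.5-fold apart kept their direction in each setting run and 57 kept the 1.5-fold distance. Of the other 6, 4 reversed and nSyb in GMC cells and pnt in progenitors were set to 0 by a setting that removed their cells; 6 of the settings were chosen after seeing the data and 2 planned settings on roX genes were not run. No paired analysis was possible because each genotype has 1 library. Counts of genes at least 1.5-fold apart differed by more than 1.5 times under the settings that follow. With a pseudocount of 1 CPM 14 genes were lower in mud GMC cells; with 20 CPM, 40 were higher in progenitors, 43 higher and 5 lower in GMC cells and 11 lower in neurons. A minimum of 100 CPM left 35 higher and 13 lower in progenitors, 35 and 5 in GMC cells and 63 and 8 in neurons, and no minimum gave 161 and 91, 161 and 49, and 196 and 44. Removing the cells with the highest doublet scores (6.07% of mud and 5.76% of nanobody cells) gave 15 lower in GMC cells. Thinned cells gave 198 higher and 141 lower in progenitors and 25 lower in GMC cells. Cells of 3000 to 12000 UMIs gave 118 higher and 84 lower in progenitors and 21 lower in GMC cells. Without cells with 3 UMIs of hemocyte or glia markers there were 299 higher and 193 lower in progenitors and 24 lower in GMC cells. Progenitors without pnt, opa or btd had 62 lower, neurons with 1 or 2 UMIs of nSyb 58 higher, and GMC cells without nSyb 15 lower. The ratio of shares, mud over nanobody, was 0.788 for progenitors with gates 1 UMI stricter (0.891 as reported), 1.22 for GMC cells (1.06) and 1.10 for neurons (1.03) after thinning, and 0.977 for neurons with at least 12% ribosomal protein UMIs. The log2 ratio reversed to -0.14 for Vmat in neurons of 3000 to 12000 UMIs, 0.37 for Lim1 in progenitors without hemocyte or glia marker cells, 0.0935 for jdp in neurons with at least 12% ribosomal protein UMIs and -0.0015 for Ldh in neurons with 1 or 2 UMIs of nSyb. A higher minimum tests fewer genes by construction, and the subsets and thinned sums hold fewer UMIs; the cause was not tested further.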

Other observations

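Neuropeptide genes gave the highest ratios of the neuron gate, and most of them came from 1 cell or a few. Hug, a neuropeptide of feeding circuits, stood at 232 CPM in mud, 0.125 in nanobody and 0.166 in control neurons, with 99.4% of the mud UMIs in 1 cell. Without that cell its log2 ratio of mud over nanobody was 0.31, against 5.53 with it. natalisin (4.61 with the top cell and 0.23 without it), FMRFa (4.39 and 0.44), Crz, which encodes corazonin (3.77 and 0.94), and AstA, allatostatin A (4.95 and 1.07), did likewise. Lk, leucokinin, had 98.9% of its mud UMIs in 1 cell of the GMC gate, with log2 ratios of 5.40 with that cell and 0.47 without it. The values with the top cell describe single sampled cells, not a level of the gate. Crz and AstA stayed past 1.5-fold without it, at low levels. Crz then stood at 13.4 CPM in mud and 4.56 in nanobody, and AstA at 5.70 and 0.104 CPM. In the neuron gate Lk (4.13 with the top cell and 2.31 without it), Dh44 (4.62 and 1.53) and AstC (2.62 and 1.59) also stayed past 1.5-fold.

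Other peptide genes kept more of their ratio without the top cell. Gpa2, a glycoprotein hormone subunit with UMIs in 51 mud neurons and 37.1% of them in 1 cell, stood at 109.6 CPM in mud and 0.0624 in nanobody but also at 95.3 in control neurons, and its log2 ratio was 3.87 without the top cell, so nanobody was the low library. The nanobody value rests on 3 UMIs, and the ratio of CPM with its counting interval was 1756 (600.4 to 8516). Gpb5, its partner, stood at 95.6 CPM in mud, 18.4 in nanobody and 57.4 in control neurons. Nplp1, a neuropeptide precursor, was 742 CPM in mud, 315 in nanobody and 33.7 in control neurons, with a log2 ratio of 1.06 without the top cell. Vmat, the vesicular monoamine transporter, was the 1 of 6 measured transmitter genes at least 1.5-fold higher in mud, at 57.8 CPM in mud, 28.2 in nanobody and 20.5 in control, and without its top cell the log2 ratio was 0.30.

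By chromosome arm, the share of measured X-linked genes at least 1.5-fold higher in mud was 3.43% in progenitors, 3.73% in GMC cells and 4.81% in neurons, against 2.27%, 2.53% and 3.38% of all measured genes in progenitors, GMC cells and neurons. The share at least 1.5-fold lower was 2.02% of X-linked genes in progenitors, 0.828% in GMC cells and 1.15% in neurons, against 0.894%, 0.33% and 0.633% of all measured genes. Both shares were thus higher on X than over all measured genes, which include those of X. The lower shares rest on few X-linked genes, 10 in progenitors, 4 in GMC cells and 6 in neurons. On chromosome 4 the share higher was 0% in progenitors, 0% in GMC cells and 1.72% in neurons. The share lower there was 0%, 0% and 1.72% in the same order, with 1 of 58 measured genes lower in neurons. The median log2 ratio of X-linked genes was -0.05 in progenitors, -0.05 in GMC cells and -0.03 in neurons.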
